A study of Homo sapiens with 36 samples.

Results

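The experiment asked how far 2 drugs given together depart from the sum of their separate effects on gene expression. It comprised 12 of the 36 polyA RNA-seq libraries in the series, all made from MDA-MB-231, an established line of human triple-negative breast cancer. Cells received SHP1705 at 10 µM together with carfilzomib at 10 nM (the combination), carfilzomib at 10 nM alone, SHP1705 at 10 µM alone, or the DMSO solvent alone, each for 24 h with 3 libraries a group. All 12 libraries are counts of the same line in the same medium, and DMSO was present in every group as the solvent. The series design mentions 3 independent experiments without tying them to the libraries, so the p-values cover the spread from library to library, whether technical or not. The interaction term of a gene was its log2 fold change in the combination against carfilzomib, minus its log2 fold change with SHP1705 against DMSO. A term of 0 means that the combination equalled the sum of both drugs on the log2 scale, that is, the product of their folds. All 16183 genes that passed the count filter, of 54583 in the table, were tested, and no gene was chosen by its term. The filter used the counts of these same libraries, so a gene could pass it through a single group where it was high.

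SHP1705 is a small molecule that stabilizes cryptochromes, which act as repressors in the circadian clock. The activators BMAL1 (gene symbol ARNTL in these data) and CLOCK switch on the PER, CRY and REV-ERB genes through E-box elements, and PER and CRY proteins then repress those activators. The REV-ERB proteins, from NR1D1 and NR1D2, in turn repress ARNTL, in competition with ROR activators. Carfilzomib is an irreversible inhibitor of the proteasome, the protease that degrades ubiquitin-tagged proteins. Cells respond to its loss with more proteasome subunits, heat shock chaperones, ubiquitin and antioxidant genes. An interaction term asks whether either response differs in the presence of the other drug.

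Libraries held 18864725 to 34008423 counts, and the edgeR fit gave a coefficient of variation of 6.72% between libraries of a group. The first principal component of the log2 levels (45.1% of the variance) separated all 6 libraries with carfilzomib from the 6 without it. The next component (19.7%) separated all 6 libraries with SHP1705 from the 6 without it. The 10 marker genes of the MDA-MB-231 line summed to 6080 to 6160 CPM in the combination, 6440 to 6820 with carfilzomib, 6290 to 6430 with SHP1705 and 6280 to 6390 in DMSO. These marker values are counts scaled to the plain total of each library. All other CPM in the text are counts scaled to a common library size (TMM), so they compare a gene between libraries and not one gene with another. Of 9 fibroblast and stroma markers DCN was at 0 in every library, and the list summed to 17.7 to 24.4 CPM over the 12 libraries. Of the 9 blood cell markers, which summed to 102 to 148 CPM, CD68 gave 99.4 to 143 CPM, on the plain total as well. The 3 carfilzomib libraries were less alike than those of the other groups, and replicate 3 stood apart in a trend with GC content described further on.

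Few genes were called for a departure from the sum. With the quasi-likelihood test of edgeR and p-values adjusted by Benjamini-Hochberg over all genes, 78 of 16183 genes (0.482%) had an adjusted p under 0.05, which is the meaning of a called gene here. The term was positive for 34 of them (0.210%) and negative for 44 (0.272%). At an unadjusted p under 0.05 there were 2202 genes, where 809 is 5% of those tested. After the correction for GC content described further on there were 1843. The number called may thus leave out genes that departed, and how many was not tested. The called departures were mostly small, since 59 of the 78 terms were under 1.5-fold and 7 reached 2-fold, of which 4 were positive. Among those 7, TRIM31, MAPT, LOC102723722 and LOC105373265 had means under 5 CPM. The rest were CRY1, NR1D1 and HSPA6, called in 12, 5 and 3 of the 12 fits that left out 1 library. The median absolute term of the called genes was 0.43. In the same libraries 1460 genes (9.02%) were called for the combination against carfilzomib, 705 higher (4.36%) and 755 lower (4.67%). SHP1705 against DMSO called 722 genes (4.46%), with 316 higher (1.95%) and 406 lower (2.51%). For carfilzomib against DMSO the calls were 3472 (21.5%), with 1631 higher (10.1%) and 1841 lower (11.4%), and for the combination against DMSO they were 4424 (27.3%).

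The count of 78 depended on single libraries. It was 20 to 25 without 1 of the combination libraries, 21 to 27 without 1 of the DMSO libraries, and 20 and 29 without SHP1705 replicate 2 or 3. Without SHP1705 replicate 1 it was 170, and without carfilzomib replicate 2 it was 477. Leaving out carfilzomib replicate 1 or 3 gave 58 and 82. Of the 78 genes, 16 were called in all 12 of these fits, and the genes described at length below are mostly among these 16. DESeq2 called 346 genes, 68 of them shared with the 78 in the same direction. On the plain CPM scale the term had the same sign for 78 of 78 genes and was beyond 2 SE for each. The same libraries had chosen these genes, so that outcome was largely fixed in advance and is a description only.

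The called genes fell into a few shapes. For 24 genes the combination lay beyond the sum of both drugs in the direction of that sum (6 positive and 18 negative terms). In 17 it fell short of the sum (12 positive and 5 negative), and in 37 it had the opposite sign to the sum, both against DMSO (16 positive and 21 negative). These classes go by sign alone, whatever the distance from the DMSO level. Some of the 37 lay near that level without a call against DMSO, such as PGK1 (-0.01) and BNIP3 (-0.04). Others had a sum near 0, such as ADAMTS12 (0.001). Seen through SHP1705, 46 genes were called for SHP1705 with carfilzomib but not without it, 21 of them higher and 25 lower. Another 24 were called for SHP1705 without carfilzomib but not with it, 14 of them higher and 10 lower. Both effects were called in the same direction for 4 genes and in opposite directions for 4. These classes use the same libraries as the term and are given as a description. The scatter of SHP1705 effects shows these shapes.

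**Figure D1:**
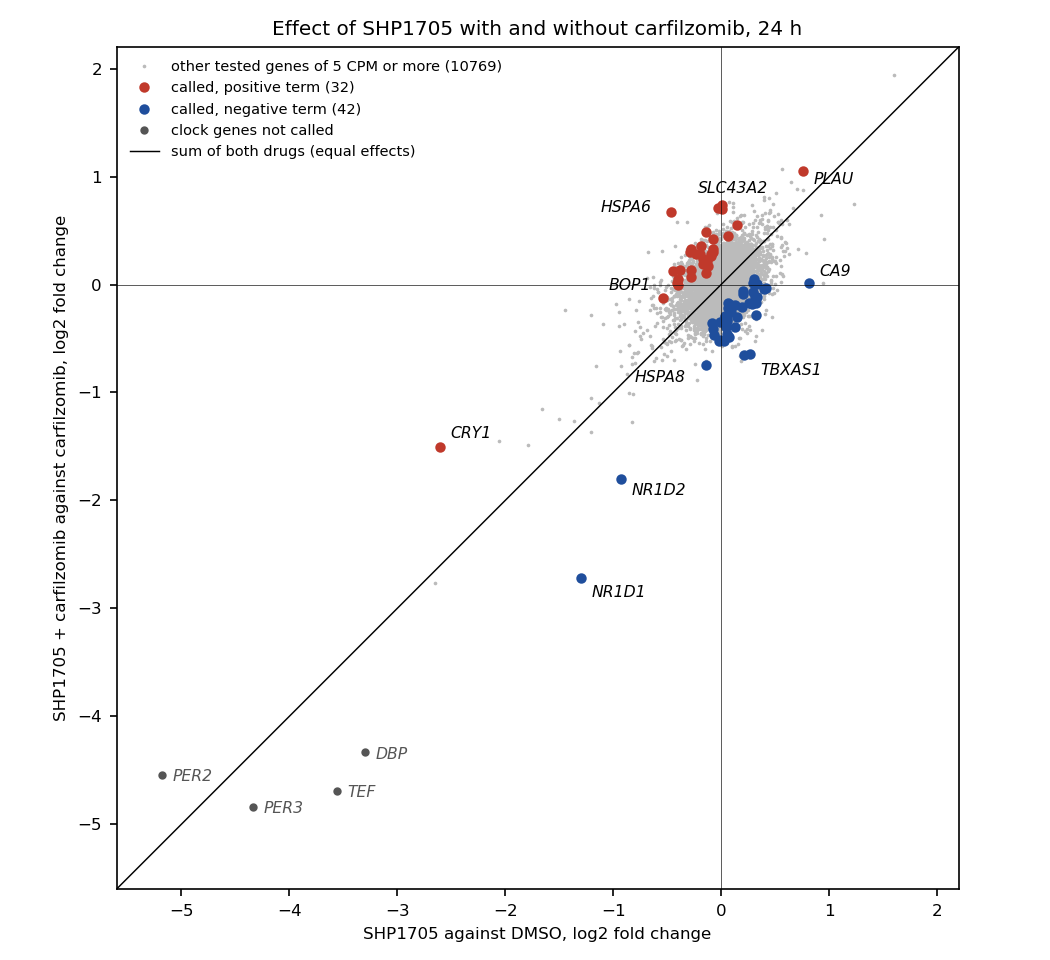
Effect of SHP1705 as log2 fold change without carfilzomib (x axis, against DMSO) and with it (y axis, against carfilzomib) for genes with a mean of 5 CPM or more; red points are 32 called genes with a positive term, blue points 42 with a negative term, grey points 10769 other genes, and the line marks equal effects. Dark grey points are 4 clock genes without a call (PER2, PER3, DBP and TEF), drawn without that limit. PER2 and DBP had means of 2.66 and 3.85 CPM. CRY1 lies above the line, NR1D1 and NR1D2 lie below it, and most other called genes lie near the centre with effects under 1 on either axis.

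The clock genes hold both the most certain positive and one of the most certain negative departures. CRY1 (chromosome 12, 106991364 to 107093549 on GRCh38.p14), which encodes a cryptochrome, had 12.8, 12.9 and 11.8 CPM in the combination libraries. It had 38.2, 33.9 and 34.3 CPM with carfilzomib, 5.63, 6.41 and 5.51 CPM with SHP1705, and 33.8, 35.6 and 37.5 CPM in DMSO. All 3 combination libraries lay above all SHP1705 libraries and below all carfilzomib and DMSO libraries. SHP1705 lowered CRY1 by -1.50 ± 0.08 (log2, SE) with carfilzomib, against -2.60 ± 0.09 without it. The term was 1.1 ± 0.13 (adjusted p = 0.000104), and it ranged from 1.06 to 1.18 when each library was left out in turn. A fit of all 36 libraries of the series added the 8 h sets described below and shared 1 estimate of the spread. There the CRY1 term stayed at 1.1 but was not called (adjusted p = 0.455). The same holds for most genes named here, of which GALNT3, P4HA1 and CDK1 alone were called in that fit. Carfilzomib alone left CRY1 at a log2 fold change of -0.01 ± 0.08.

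NR1D2 (chromosome 3, 23945286 to 23980617), which encodes REV-ERB beta, went the other way. It had 17.8, 17.6 and 20.4 CPM in the combination, 61.8, 60.4 and 72 CPM with carfilzomib, 24.7, 26.4 and 23.8 CPM with SHP1705, and 48.4, 45.8 and 48.3 CPM in DMSO. The combination libraries were the lowest of the 12 and the carfilzomib libraries the highest, with no overlap between any groups. Carfilzomib raised NR1D2 by 0.45 ± 0.07 (adjusted p = 0.00011), yet the combination was at -1.35 ± 0.08 against DMSO where the sum of both drugs is -0.48. The term was -0.87 ± 0.11 (adjusted p = 0.000382), with -0.94 to -0.78 over the fits without 1 library.

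NR1D1 (chromosome 17, 40092793 to 40100589), the REV-ERB alpha gene, had the same shape at a lower level. Its CPM were 1.97, 2.68 and 2.39 in the combination, 12.8, 15.8 and 17.7 with carfilzomib, 2.88, 3.73 and 6.36 with SHP1705, and 11.0, 11.1 and 9.94 in DMSO. The term was -1.42 ± 0.29 (adjusted p = 0.0269), with calls in 5 of the 12 fits without 1 library and a range of -1.64 to -1.02. The combination libraries did not overlap those of SHP1705, whose own spread was wide.

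The remaining clock genes carried no call for the term, many of them at a few CPM and with wide intervals. Of 12 measured E-box clock genes, the term was called positive for 1 and negative for 2, with a median of -0.14, against 0.482% called and a median of -0.00 over all genes. SHP1705 lowered 11 of the 12 with carfilzomib and 12 without it, beside 4.67% and 2.51% of all genes, with median log2 fold changes of -2.26 and -2.63. PER3, a period gene, was at 0.619, 1.05 and 0.923 CPM in the combination, 25, 24.2 and 25.3 CPM with carfilzomib, 0.709, 1.01 and 1.43 CPM with SHP1705, and 22.6, 22.9 and 18.9 CPM in DMSO. Its term was -0.50 with a 95% interval of -1.10 to 0.09. TEF and DBP, transcription factors of clock output, had terms of -1.13 ± 0.34 (adjusted p = 0.135) and -1.04 ± 0.46 (adjusted p = 0.311). CRY2, the other cryptochrome gene, had a term of 0.30 (95% interval -0.10 to 0.71), so the size seen in CRY1 lay outside its interval. BHLHE40, an E-box repressor gene with 50.8 to 78.4 CPM over the libraries, had -0.00 ± 0.08 (interval -0.16 to 0.16). PER1 and PER2 had terms of -0.12 ± 0.30 and 0.64 ± 0.70, and BHLHE41 and CIART had -0.16 ± 0.22 and 1.21 ± 0.75.

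None of the 6 measured genes under ROR and REV-ERB control was called, with a median term of -0.07. ARNTL, which encodes BMAL1, had 18.7, 17.3 and 19.7 CPM in the combination, 4.57, 5.22 and 4.62 CPM with carfilzomib, 16.2, 16.5 and 13.1 CPM with SHP1705, and 4.88, 5.20 and 4.92 CPM in DMSO. All libraries with SHP1705 were above all libraries without it, and the term was 0.34 (interval -0.02 to 0.69, adjusted p = 0.399). NPAS2, a CLOCK paralogue, rose with SHP1705 by 0.60 ± 0.06 in the presence of carfilzomib and by 0.55 ± 0.06 in its absence, with a term of 0.04 ± 0.09. NFIL3, CLOCK, ARNTL2 and RORA had terms of 0.18 ± 0.15, -0.21 ± 0.09, -0.18 ± 0.10 and -0.35 ± 0.70. HLF and RORB, with at most 16 counts in any library, did not pass the count filter.

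The chaperone gene HSPA8 had the smallest p among the negative terms. HSPA8 (chromosome 11, 123057489 to 123062462), which encodes the constitutive HSP70 of the cytosol, had 776, 787 and 837 CPM in the combination. The libraries had 1240, 1300 and 1480 CPM with carfilzomib, 1450, 1480 and 1490 CPM with SHP1705, and 1620, 1630 and 1640 CPM in DMSO. The 3 combination libraries were far below the other 9. The combination was at -1.02 ± 0.05 against DMSO where the sum of both drugs is -0.42, and the term was -0.60 ± 0.07 (adjusted p = 0.000104). DNAJA1 (chromosome 9, 33025273 to 33039907), a J-domain partner of that chaperone, had 269, 270 and 270 CPM in the combination, 341, 332 and 333 CPM with carfilzomib, 377, 375 and 376 CPM with SHP1705, and 367, 353 and 365 CPM in DMSO. Its term was -0.37 ± 0.06 (adjusted p = 0.00218), with the combination below every other library.

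UBB (chromosome 17, 16380779 to 16382745), a polyubiquitin gene, had 737, 796 and 857 CPM in the combination, 1220, 1190 and 1020 CPM with carfilzomib, 1600, 1650 and 1600 CPM with SHP1705, and 1610, 1520 and 1640 CPM in DMSO. Carfilzomib lowered UBB by -0.47 ± 0.06 and SHP1705 alone gave 0.03 ± 0.06, while the combination was at -1.0 ± 0.06 against DMSO. The term was -0.55 ± 0.08 (adjusted p = 0.00184). The 25 measured ubiquitin, VCP and autophagy receptor genes had a median term of 0.05. Of these, 0 were called positive and 2 negative, UBB among them, beside 0.272% of all genes called negative. UBB consists of near-identical ubiquitin repeats shared with other ubiquitin genes, and HSPA8 and LDHA have many processed copies in the genome, so reads may be split between copies.

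HSPA6 (chromosome 1, 161524540 to 161526894), a strictly stress-induced HSP70, rose beyond the sum. It had 18.3, 15.9 and 18.4 CPM in the combination, 12.7, 10.7 and 9.66 CPM with carfilzomib, 0.946, 1.34 and 1.73 CPM with SHP1705, and 1.91, 1.79 and 1.87 CPM in DMSO. The groups did not overlap. The term was 1.14 ± 0.26 (adjusted p = 0.0456), called in 3 of the 12 fits without 1 library, and its adjusted p was 0.0608 after a correction for GC content. Of 26 measured heat shock genes these were the only 3 called, 1 positive and 2 negative, with a median term of -0.05. Over all genes 0.482% were called. Carfilzomib alone raised 10 of the 26 and lowered 3, beside 10.1% and 11.4% of all genes, and the lowered share is thus near that of all genes. The combination against carfilzomib raised 2 and lowered 5, beside 4.36% and 4.67% of all genes.

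The promoters of the 3 called heat shock genes are shown because all of them hold the heat shock element. The element was searched on both strands as GAA, TTC and GAA blocks, or their reverse, with 2 bases between blocks. RefSeq promoters of GRCh38.p14 run from 250 bases before to 50 after each start, 300 bases in all. The element was found in 38 of 11832 promoters of tested genes (0.321%) and in 6 of 25 promoters of the heat shock list. Capitals mark the element, which begins at -230 and -55 from the start of HSPA8, at 4 in DNAJA1 and at -74 in HSPA6.
HSPA8 promoter (chr11:123062087-123062386, minus strand): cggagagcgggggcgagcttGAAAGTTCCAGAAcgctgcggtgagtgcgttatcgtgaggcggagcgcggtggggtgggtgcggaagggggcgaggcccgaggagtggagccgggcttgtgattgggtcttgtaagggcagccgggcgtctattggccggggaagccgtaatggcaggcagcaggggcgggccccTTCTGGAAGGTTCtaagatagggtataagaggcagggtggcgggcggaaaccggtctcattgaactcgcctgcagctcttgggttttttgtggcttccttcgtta
DNAJA1 promoter (chr9:33025023-33025322, plus strand): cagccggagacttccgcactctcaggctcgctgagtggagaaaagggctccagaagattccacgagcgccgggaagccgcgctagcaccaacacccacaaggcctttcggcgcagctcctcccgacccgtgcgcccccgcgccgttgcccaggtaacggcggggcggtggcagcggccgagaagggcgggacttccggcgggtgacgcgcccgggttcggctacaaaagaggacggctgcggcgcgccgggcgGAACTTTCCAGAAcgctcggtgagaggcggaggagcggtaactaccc
HSPA6 promoter (chr1:161524290-161524589, plus strand): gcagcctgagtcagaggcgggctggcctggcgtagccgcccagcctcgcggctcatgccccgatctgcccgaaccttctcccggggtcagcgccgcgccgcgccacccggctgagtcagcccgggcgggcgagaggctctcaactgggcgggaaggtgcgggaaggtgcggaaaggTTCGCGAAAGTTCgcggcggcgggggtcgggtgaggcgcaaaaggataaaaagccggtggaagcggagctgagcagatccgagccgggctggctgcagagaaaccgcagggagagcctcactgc
The element thus occurs in genes with negative and with positive terms, and a match of letters is not evidence that a factor binds there. No match was found in the UBB window.

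Hypoxia and glycolysis genes were the group with the most calls in 1 direction. Of 27 measured genes, 6 had a called negative term and 0 a called positive one, against 0.272% of all genes called negative. The median term was -0.13, and 23 of the 27 terms were below 0. SHP1705 raised 6 and lowered 1 of the 27 in the presence of carfilzomib (median 0.01), beside 4.36% and 4.67% of all genes. It raised 14 and lowered 0 in the absence of carfilzomib (median 0.19), beside 1.95% and 2.51%. The list had a median transcript GC content of 53%, above the 48.8% of all genes, and after the GC correction 10 of its genes were called negative and 0 positive.

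BNIP3 (chromosome 10, 131967684 to 131981923), which encodes a mitophagy receptor, had 142, 131 and 142 CPM in the combination, 136, 139 and 150 CPM with carfilzomib, 188, 181 and 203 CPM with SHP1705, and 146, 145 and 137 CPM in DMSO. SHP1705 libraries were above the other 9, which overlapped. Its term was -0.45 ± 0.08 (adjusted p = 0.00692). P4HA1 (chromosome 10, 73007217 to 73096866), a subunit of the collagen prolyl hydroxylase, had 95.6, 100 and 103 CPM in the combination, 98.0, 106 and 103 CPM with carfilzomib, 136, 140 and 140 CPM with SHP1705, and 105, 104 and 107 CPM in DMSO. The SHP1705 libraries again stood alone, and the term was -0.44 ± 0.07 (adjusted p = 0.00332).

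NDRG1, a gene induced by low oxygen, showed the same shape at 476, 480 and 488 CPM in the combination, 499, 526 and 495 CPM with carfilzomib, 604, 604 and 590 CPM with SHP1705, and 485, 491 and 493 CPM in DMSO (term -0.37 ± 0.06, adjusted p = 0.00218). CA9, the gene of a membrane carbonic anhydrase, had 11.3, 12.9 and 13.0 CPM in the combination, 10.2, 12.1 and 14.4 CPM with carfilzomib, 28.2, 28.6 and 27.6 CPM with SHP1705, and 16.4, 15.2 and 16.5 CPM in DMSO. Its term was -0.80 ± 0.15 (adjusted p = 0.0151), called in 9 of the 12 fits without 1 library. PGK1, the glycolytic phosphoglycerate kinase gene, had a term of -0.28 ± 0.05 (adjusted p = 0.0171), and SHP1705 shifted it by 0.01 with carfilzomib and by 0.29 without it. CA9 and PGK1 were among the called members of the list beyond the 4 that the naming rule takes and were chosen after their values were seen.

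LDHA (chromosome 11, 18394563 to 18408425), the lactate dehydrogenase gene, reached its call in another way. It had 1550, 1590 and 1650 CPM in the combination, 1950, 1980 and 2100 CPM with carfilzomib, 2090, 2190 and 2260 CPM with SHP1705, and 2060, 2030 and 2200 CPM in DMSO. The combination was below the other 9 libraries, which overlapped, so SHP1705 lowered LDHA with carfilzomib (-0.34 ± 0.04) and gave 0.05 ± 0.04 without it. The term was -0.39 ± 0.06 (adjusted p = 0.00218). Members without a call included VEGFA (term 0.06, adjusted p = 0.745), SLC2A1 (-0.05, adjusted p = 0.814) and GAPDH (-0.08, adjusted p = 0.445), which encode a vascular growth factor, a glucose transporter and a glycolytic dehydrogenase.

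Promoters of 3 of these genes are shown with the core of the hypoxia response element, ACGTG, in capitals on either strand. The search for this motif was added after the values of the list were seen. The letters ACGTG lie within the E-box CACGTG, which clock activators and other factors also bind. They were found in 3103 of 11832 promoters of tested genes (26.2%), in 11 of 23 of the list and in 5 of the 5 called members with a promoter in the table that was searched.
LDHA promoter (chr11:18394313-18394612, plus strand): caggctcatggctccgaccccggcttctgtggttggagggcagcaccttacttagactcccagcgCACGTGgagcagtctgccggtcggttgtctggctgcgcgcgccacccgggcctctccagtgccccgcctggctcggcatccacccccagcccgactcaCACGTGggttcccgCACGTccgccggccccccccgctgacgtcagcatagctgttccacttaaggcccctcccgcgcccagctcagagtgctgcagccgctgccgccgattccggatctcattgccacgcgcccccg
BNIP3 promoter (chr10:131981874-131982173, minus strand): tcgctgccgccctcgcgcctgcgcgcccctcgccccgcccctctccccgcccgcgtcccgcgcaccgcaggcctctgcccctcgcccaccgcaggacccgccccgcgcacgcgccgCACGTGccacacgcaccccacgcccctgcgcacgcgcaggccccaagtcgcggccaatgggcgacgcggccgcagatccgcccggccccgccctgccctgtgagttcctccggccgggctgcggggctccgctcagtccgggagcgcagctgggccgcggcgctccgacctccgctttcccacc
P4HA1 promoter (chr10:73096817-73097116, minus strand): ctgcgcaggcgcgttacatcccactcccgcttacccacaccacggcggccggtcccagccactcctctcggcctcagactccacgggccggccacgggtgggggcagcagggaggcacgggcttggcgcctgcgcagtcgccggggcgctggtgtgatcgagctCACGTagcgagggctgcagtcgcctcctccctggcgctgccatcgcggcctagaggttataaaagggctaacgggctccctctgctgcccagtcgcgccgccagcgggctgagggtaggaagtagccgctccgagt
In LDHA and BNIP3 the capitals include the full E-box, and in P4HA1 they do not. At this length the core occurs often, so the match is a description.

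**Figure D2:**
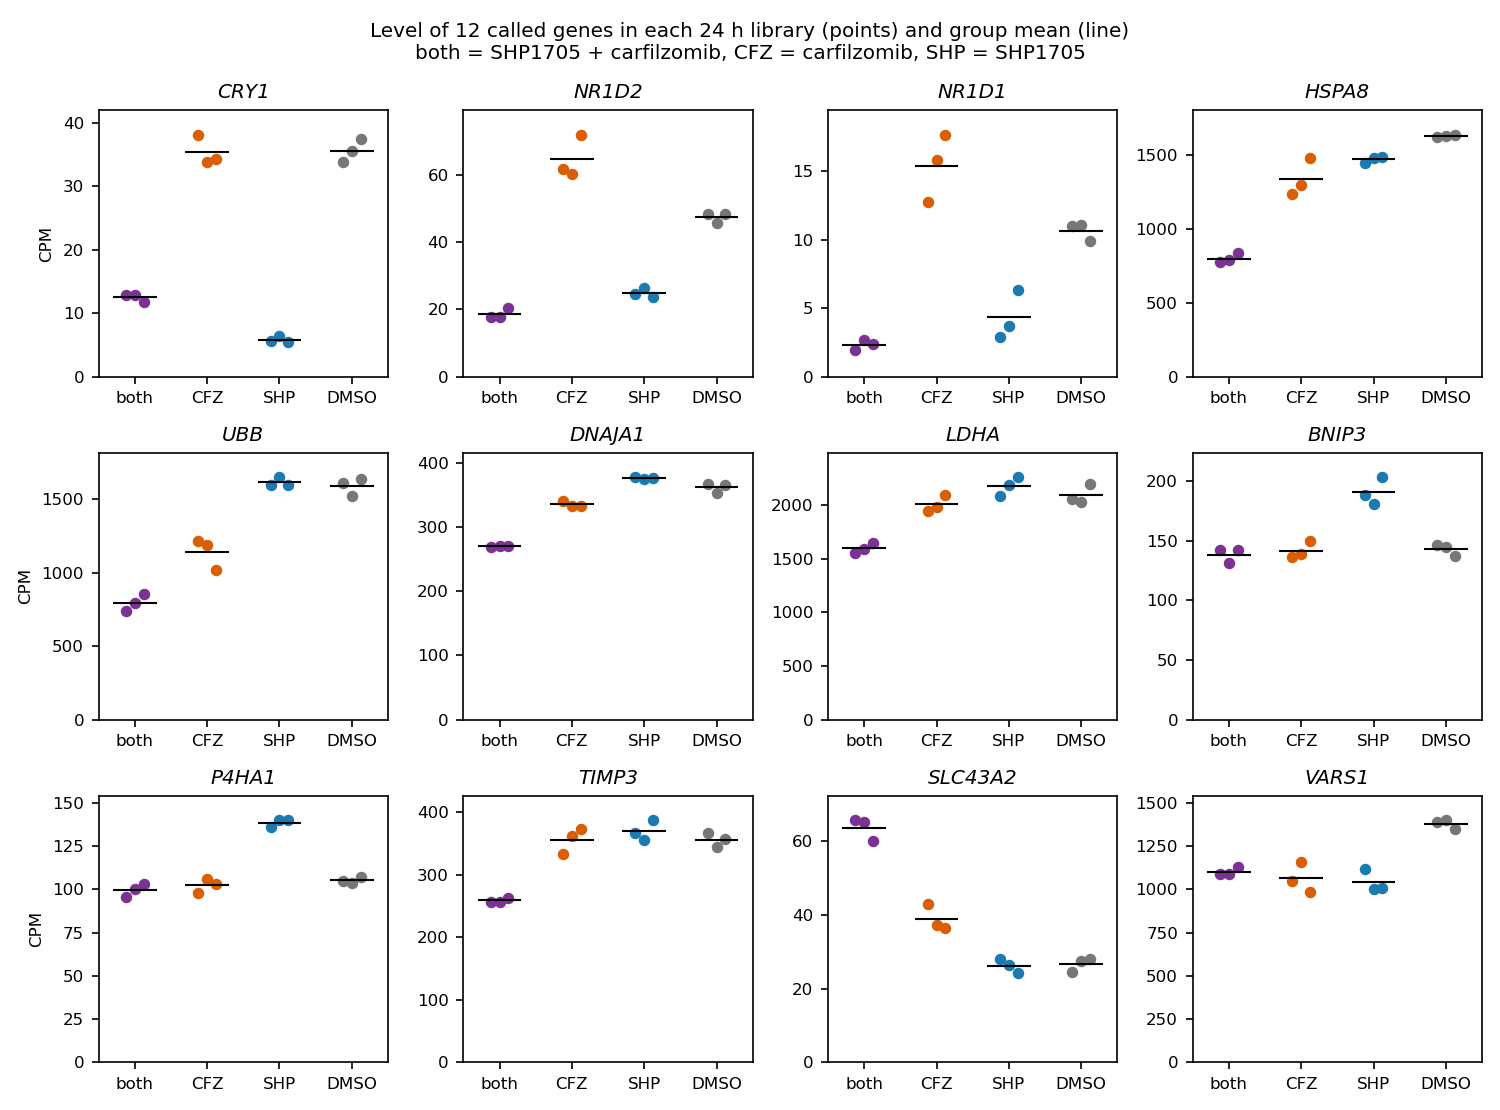
CPM of 12 called genes in each of the 12 libraries (points) with group means (lines), for the combination (both), carfilzomib (CFZ), SHP1705 (SHP) and DMSO, with each y axis starting at 0. BNIP3 and P4HA1 are highest with SHP1705 alone, HSPA8, UBB, DNAJA1, LDHA and TIMP3 are lowest in the combination, and SLC43A2 is highest there.

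Other genes called in all 12 fits without 1 library had varied functions. TIMP3 (chromosome 22, 32801705 to 32863041), an inhibitor of metalloproteinases, had 257, 257 and 263 CPM in the combination, 333, 362 and 373 CPM with carfilzomib, 367, 356 and 387 CPM with SHP1705, and 366, 344 and 357 CPM in DMSO. Neither drug alone gave a called change (0.00 ± 0.05 for carfilzomib, 0.06 ± 0.05 for SHP1705), and all 3 combination libraries were below the other 9. The term was -0.52 ± 0.07 (adjusted p = 0.000414). GALNT3, an enzyme gene of mucin-type glycosylation, and ELOVL6, a fatty acid elongase gene, had the combination as their lowest group. GALNT3 had 27.9, 28.5 and 27.5 CPM in the combination, 34.3, 32.0 and 36.2 CPM with carfilzomib, 40.4, 42.5 and 38.1 CPM with SHP1705, and 31.9, 33.6 and 30.9 CPM in DMSO (term -0.61 ± 0.10, adjusted p = 0.00365). ELOVL6 had 76.2, 75.6 and 75.1 CPM in the combination, 83.4, 82.1 and 90.1 CPM with carfilzomib, 105, 109 and 114 CPM with SHP1705, and 85.4, 85.6 and 91.2 CPM in DMSO (term -0.49 ± 0.08, adjusted p = 0.00249). In both genes the SHP1705 libraries were the highest.

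On the positive side, SLC43A2 (chromosome 17, 1569254 to 1630088), a neutral amino acid transporter gene, had 65.6, 65.2 and 59.9 CPM in the combination, 42.9, 37.3 and 36.4 CPM with carfilzomib, 27.9, 26.4 and 24.3 CPM with SHP1705, and 24.4, 27.4 and 28.1 CPM in DMSO. SHP1705 raised it with carfilzomib (0.71 ± 0.07) and gave -0.03 ± 0.08 without it, and the term was 0.74 ± 0.11 (adjusted p = 0.00218). MICA, whose product is a stress-induced ligand of an immune receptor, had 208, 188 and 194 CPM in the combination, 158, 148 and 137 CPM with carfilzomib, 112, 114 and 114 CPM with SHP1705, and 119, 121 and 120 CPM in DMSO. Its term was 0.50 ± 0.08 (adjusted p = 0.00218), with the combination above every other library.

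VARS1, the valyl-tRNA synthetase gene, and TSR3, a gene of ribosomal RNA modification, fell short of the sum. VARS1 had 1090, 1090 and 1130 CPM in the combination, 1050, 1160 and 987 CPM with carfilzomib, 1120, 1000 and 1010 CPM with SHP1705, and 1390, 1400 and 1350 CPM in DMSO. Each drug alone lowered it, by -0.37 ± 0.05 for carfilzomib and -0.40 ± 0.05 for SHP1705, and both together gave -0.32 ± 0.05 where the sum is -0.76. The term was 0.44 ± 0.07 (adjusted p = 0.00374). TSR3 had 54.5, 53.7 and 50.4 CPM in the combination, 47.4, 52.2 and 45.4 CPM with carfilzomib, 50.3, 42.4 and 45.8 CPM with SHP1705, and 67.1, 60.3 and 61.1 CPM in DMSO (term 0.57 ± 0.10, adjusted p = 0.0101). In both genes all 9 libraries that received a drug lay below all 3 DMSO libraries. The VARS1 libraries of the 3 drug groups overlapped, while in TSR3 all combination libraries were above all SHP1705 libraries.

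A few list members were called less firmly, in 3 to 8 of the 12 fits without 1 library, and TXNRD1, PLAU, BOP1 and NFKBIE among them were not called after a correction for GC content. CDK1, the mitotic kinase gene, had 61.3, 62.8 and 58.5 CPM in the combination, 84.5, 79.9 and 98.8 CPM with carfilzomib, 92.4, 102 and 95.2 CPM with SHP1705, and 94.3, 98.0 and 101 CPM in DMSO (term -0.51 ± 0.09, adjusted p = 0.0151). It was the only called one of 26 genes of G2 and mitosis, whose median term was -0.10. For that list SHP1705 lowered 13 genes with carfilzomib and 1 without it, beside 4.67% and 2.51% of all genes. PLK1, another mitotic kinase gene, had a term of -0.06 ± 0.07 and no call.

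HSP90B1, a chaperone gene of the endoplasmic reticulum, had a term of -0.29 ± 0.06 (adjusted p = 0.0269), and TXNRD1, the thioredoxin reductase gene, had -0.26 ± 0.06 (adjusted p = 0.0458). SHP1705 raised TXNRD1 by 0.30 ± 0.04 alone and gave 0.05 ± 0.04 with carfilzomib. PLAU, the urokinase gene, was raised by SHP1705 in both settings, by 1.05 ± 0.04 with carfilzomib and 0.76 ± 0.04 without it, with a term of 0.29 ± 0.06 (adjusted p = 0.032). BOP1, a ribosome biogenesis factor gene, was lowered by SHP1705 alone (-0.54 ± 0.07) and less with carfilzomib (-0.13 ± 0.07), with a term of 0.42 ± 0.09 (adjusted p = 0.0387), which was 0.24 after the GC correction (adjusted p = 0.0905). NFKBIE, an NF-kB inhibitor gene, GADD45A, a stress-response gene, and CCN1, a matrix protein gene, had terms of 0.41 ± 0.09, 0.35 ± 0.07 and 0.25 ± 0.06 with adjusted p of 0.0378, 0.0217 and 0.041.

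4 called genes had mean levels under 5 CPM, where a fitted term depends on the prior count. TRIM31, a ubiquitin ligase gene, had 0.619, 0.405 and 0.692 CPM in the combination, 0, 0.0885 and 0.336 CPM with carfilzomib, 0, 0 and 0.110 CPM with SHP1705, and 1.32, 0.791 and 0.374 CPM in DMSO. No fold is given for it, since 2 of the SHP1705 libraries were at 0. MAPT, the gene of the microtubule protein tau, had 3.75, 4.54 and 5.0 CPM in the combination and 3.92, 3.58 and 4.59 CPM in DMSO (adjusted p of the term = 0.041), and the others were the uncharacterized loci LOC102723722 and LOC105373265. They fall outside the naming rule and were named after their values were seen.

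Much of the response to carfilzomib carried no called term, though a missing call does not show that a gene followed the sum. Of 34 proteasome subunit genes, carfilzomib raised 33, beside 10.1% of all genes, and 0 had a called term (median 0.04, range -0.21 to 0.27). PSMB5, the subunit that carfilzomib binds, had 183, 182 and 189 CPM in the combination, 182, 197 and 183 CPM with carfilzomib, 119, 120 and 123 CPM with SHP1705, and 124, 121 and 118 CPM in DMSO. The groups with carfilzomib overlapped each other and lay above the groups without it, and the term was -0.02 (interval -0.16 to 0.12). PSMD1, a regulatory subunit gene, had a term of -0.02 (interval -0.16 to 0.11).

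The inducible HSP70 gene HSPA1A had 1250, 1140 and 1290 CPM in the combination, 1130, 1160 and 1050 CPM with carfilzomib, 716, 735 and 711 CPM with SHP1705, and 715, 690 and 691 CPM in DMSO, with a term of 0.10 (interval -0.03 to 0.23). Its near-identical neighbour HSPA1B had 0.03 (interval -0.09 to 0.16). DNAJB1, an HSP40 gene, had -0.09 (interval -0.22 to 0.04), and BAG3, a co-chaperone gene, had 0.13 (interval -0.02 to 0.29). Carfilzomib alone gave -0.15 ± 0.04 for DNAJB1 and 0.06 ± 0.05 for BAG3, so neither had a called rise. AKR1B10, an aldo-keto reductase gene, had the strongest response to carfilzomib of the genes named here, with 27.4, 26.0 and 25.9 CPM in the combination, 21.3, 22.5 and 23.8 CPM with carfilzomib, 1.38, 1.46 and 1.29 CPM with SHP1705, and 1.09, 0.916 and 1.18 CPM in DMSO. Its term was -0.15 (interval -0.59 to 0.29). HMOX1, the heme oxygenase gene, had 0.11 (interval -0.20 to 0.42), and SQSTM1, an autophagy receptor gene, had 0.05 (interval -0.07 to 0.16).

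For the integrated stress response, 0 of 25 genes were called, with a median of -0.16. ATF3 and DDIT3, which encode stress-induced transcription factors, had -0.00 (interval -0.35 to 0.34) and 0.11 (interval -0.24 to 0.47), and CHAC1, a glutathione-degrading enzyme gene, had -0.24 (interval -0.86 to 0.39). SLC7A11, the cystine transporter gene, narrowly missed the threshold at -0.66 ± 0.15 (adjusted p = 0.0549), as did MYC at 0.31 ± 0.08 (adjusted p = 0.08). CYP1B1, an aryl hydrocarbon receptor target, had -0.10 (interval -0.25 to 0.05), and CDKN1A, a cell cycle inhibitor gene, -0.08 (interval -0.21 to 0.06). POSTN reached at most 1 count in a library and CDKN2A at most 12, so neither was tested.

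Across 32 gene lists, 20 held no called gene, and no list but that of hypoxia and glycolysis had more than 3 calls. The medians of the term ran from -0.16 for the integrated stress response to 0.27 for replication-dependent histones, with 0 of 11 histones called. NF-kB targets had a median of 0.24 with 1 of 19 called, and AP-1 and immediate early genes had 0.27 with 1 of 19 called. For comparison, all 16183 genes had a median of -0.00. After the GC correction the medians were lower, at 0.15 for histones, 0.18 for NF-kB targets and 0.15 for AP-1 and immediate early genes. That of the integrated stress response was -0.155 and that of all genes -0.003. All 13 mitochondrially encoded transcripts had terms below 0 (-0.55 to -0.01), and 0 were called. The plot of list medians sets the effect of SHP1705 with carfilzomib beside that without it.

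**Figure D3:**
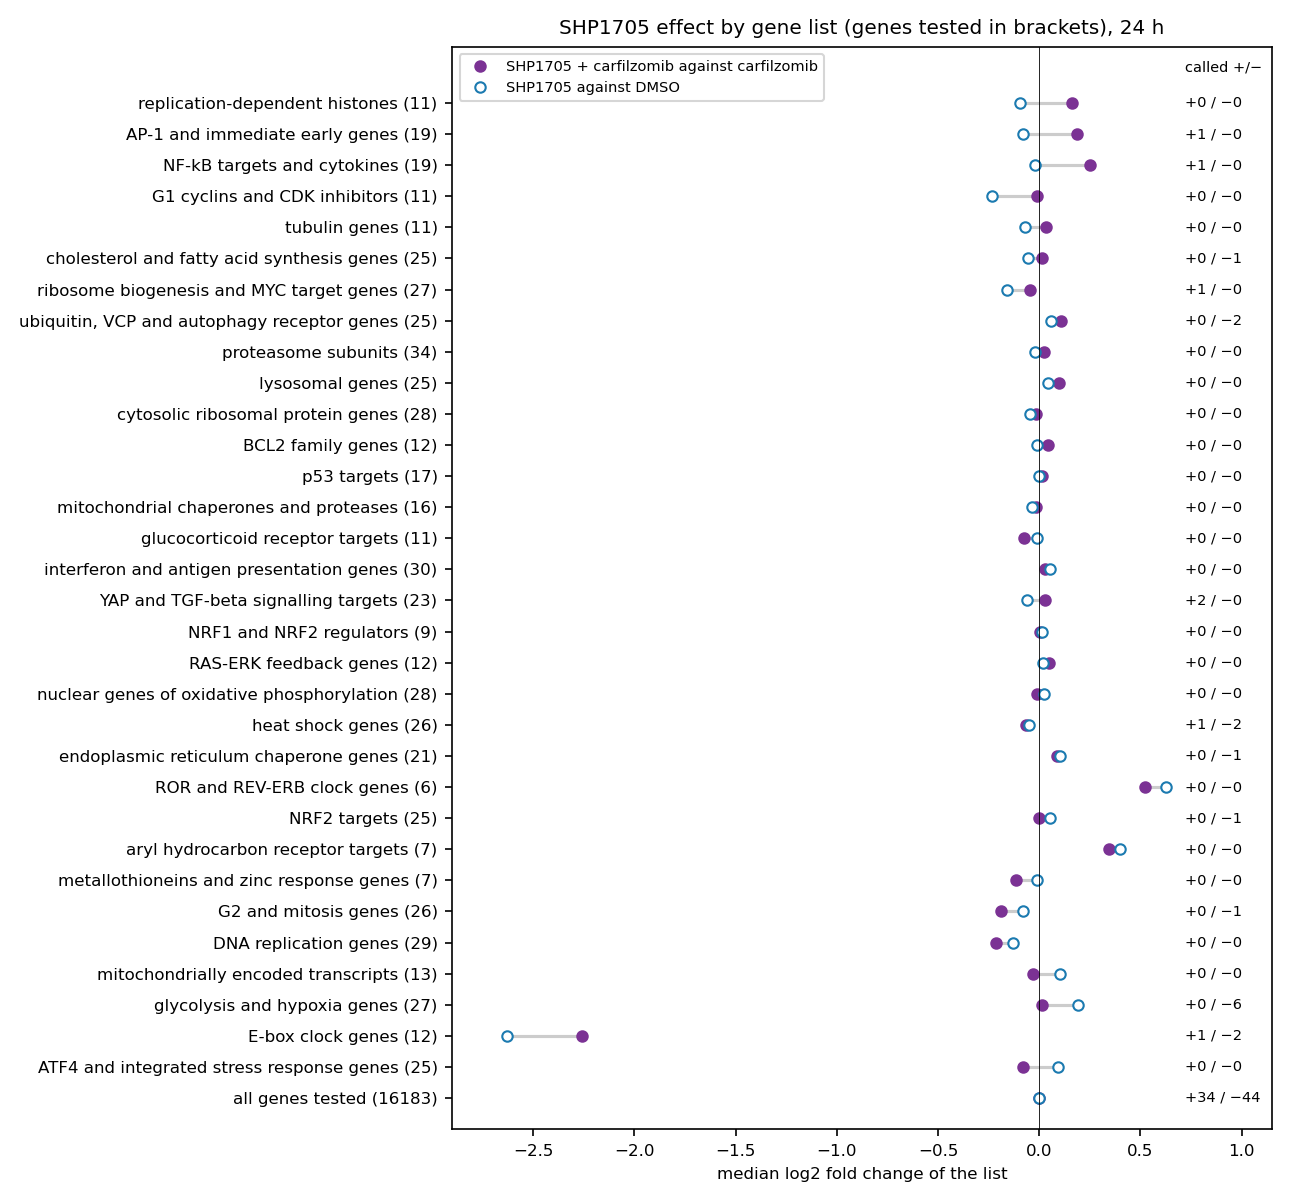
Median log2 fold change of SHP1705 in each gene list, with carfilzomib (filled) and without it (open), the genes tested in brackets and the called positive and negative terms at the right; lists are ordered by their median term, with all genes at the bottom. The E-box clock genes lie far left of the rest in both settings (-2.26 and -2.63), and the hypoxia and glycolysis list is at 0.01 with carfilzomib and 0.19 without it.

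A trend with base composition ran through the term. Over 10642 genes with 5 CPM or more and a known transcript GC content, Spearman's rho of the term with GC content was 0.50 (across genes, which share the 12 libraries). It was -0.46 for carfilzomib against DMSO, 0.37 for SHP1705 with carfilzomib and -0.18 for SHP1705 without it. With genes split into 10 equal groups by GC content, the median term was -0.13 in the lowest group and 0.15 in the highest. The slope of the log2 level on GC content was -0.144 per 10 GC points in carfilzomib replicate 3, against -0.046 and -0.012 in its other replicates. It was 0 to 0.003 in the combination, -0.007 to 0.046 with SHP1705 and 0.038 to 0.061 in DMSO. Without carfilzomib replicate 3 rho was 0.32. Called genes with a positive term had a median GC content of 58.4%, those with a negative term 43.1%, and all genes 48.3%.

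After each library's trend with GC content was removed, 85 genes were called (0.525%), 23 positive and 62 negative, and 52 of them were among the 78. Of the 34 positive genes 17 kept their call, and of the 44 negative genes 35 did. CRY1, NR1D1, NR1D2, HSPA8, UBB, DNAJA1, LDHA, BNIP3, P4HA1, TIMP3, GALNT3, ELOVL6, SLC43A2, MICA and TSR3 were all called after the correction, while HSPA6, TXNRD1, PLAU, NFKBIE and BOP1 were not. Of the 78 genes, 75 had a GC value. VARS1, LOC102723722 and LOC105373265 had none, so the correction left their levels as they were, and their calls are counted among the 52. The correction was chosen after the trend was seen, and the part of RNA quality or library preparation in it was not tested.

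**Figure D4:**
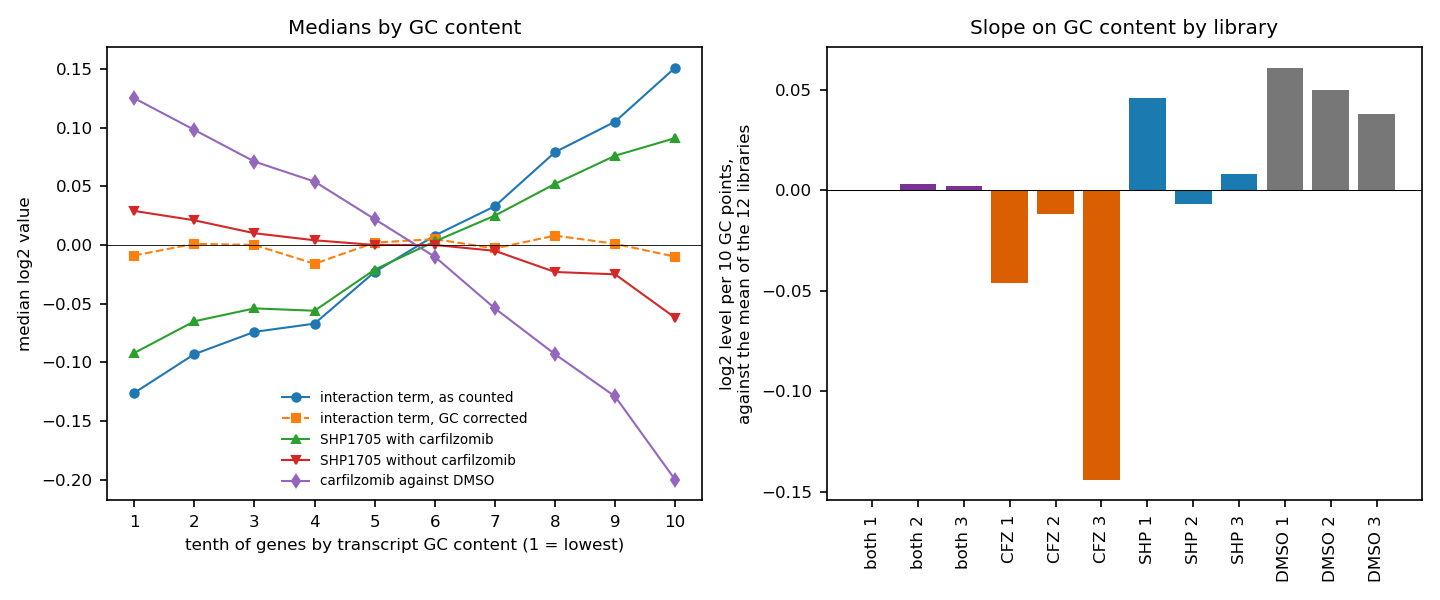
Left, median log2 values of the term and of its components in 10 equal groups of genes ordered by transcript GC content; right, slope of each library's log2 level on GC content, per 10 GC points, against the mean of the 12 libraries. The median term climbs from -0.13 to 0.15 and lies between -0.02 and 0.01 after the correction, and carfilzomib replicate 3 has the steepest slope.

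The series also holds a set of 12 libraries with MG132, another proteasome inhibitor, at 100 nM for 8 h with the same 4 groups. Inhibitor, dose and time all differ between this set and the carfilzomib set at 24 h and cannot be told apart from these 2 sets. A set with carfilzomib for 8 h was not compared here, because libraries in it had earlier been reported to go against their labels. Its libraries entered only an alternative fit of all 36. Libraries of the MG132 set stood apart in POSTN, a stromal matrix gene with at most 1 count in any library of the 24 h set. POSTN had 2876, 6865 and 8040 counts with SHP1705 and MG132, 1337, 6 and 6972 with MG132, 11, 1075 and 1134 with SHP1705, and 10, 4 and 4 in DMSO. Every library with SHP1705 and MG132 was high, so the interaction in that set cannot be had without such libraries, and the part of what they hold was not tested. In the MG132 set 8108 of 16591 genes (48.9%) had a called interaction. The difference between the interactions was called for 5486 of 17793 genes (30.8%), and for 58 of the 78 genes called at 24 h. Over the 78 genes the sign was the same in both sets for 46 and opposite for 32, beside 50.4% with the same sign among all 15613 genes tested in both. The interaction in the MG132 set was called with the same sign for 27 and with the other sign for 22.

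HSPA8, UBB and DNAJA1 lay on opposite sides in the 2 sets, whereas HSPA6 was positive in both (1.14 ± 0.26 and 6.72 ± 0.43). HSPA8 had -0.60 ± 0.07 with carfilzomib at 24 h and 1.61 ± 0.03 with MG132 at 8 h, with a difference of -2.22 ± 0.08 (adjusted p = 1.17e-19). UBB had -0.55 ± 0.08 with carfilzomib and 1.01 ± 0.06 with MG132, and DNAJA1 had -0.37 ± 0.06 and 1.64 ± 0.04. NR1D2 changed sides as well, at -0.87 ± 0.11 with carfilzomib and 0.64 ± 0.09 with MG132. CRY1 was positive in both sets, at 1.1 ± 0.13 and 0.39 ± 0.08, with a difference of 0.70 ± 0.15 (adjusted p = 0.000385). TIMP3 and LDHA had nearly the same term in both sets, TIMP3 with -0.52 ± 0.07 and -0.53 ± 0.04 (difference 0.01 ± 0.08) and LDHA with -0.39 ± 0.06 and -0.38 ± 0.03 (difference -0.02 ± 0.07). HSPA1A and DNAJB1, without a call at 24 h, had interactions of 5.65 ± 0.16 and 3.78 ± 0.05 in the MG132 set.

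**Figure D5:**
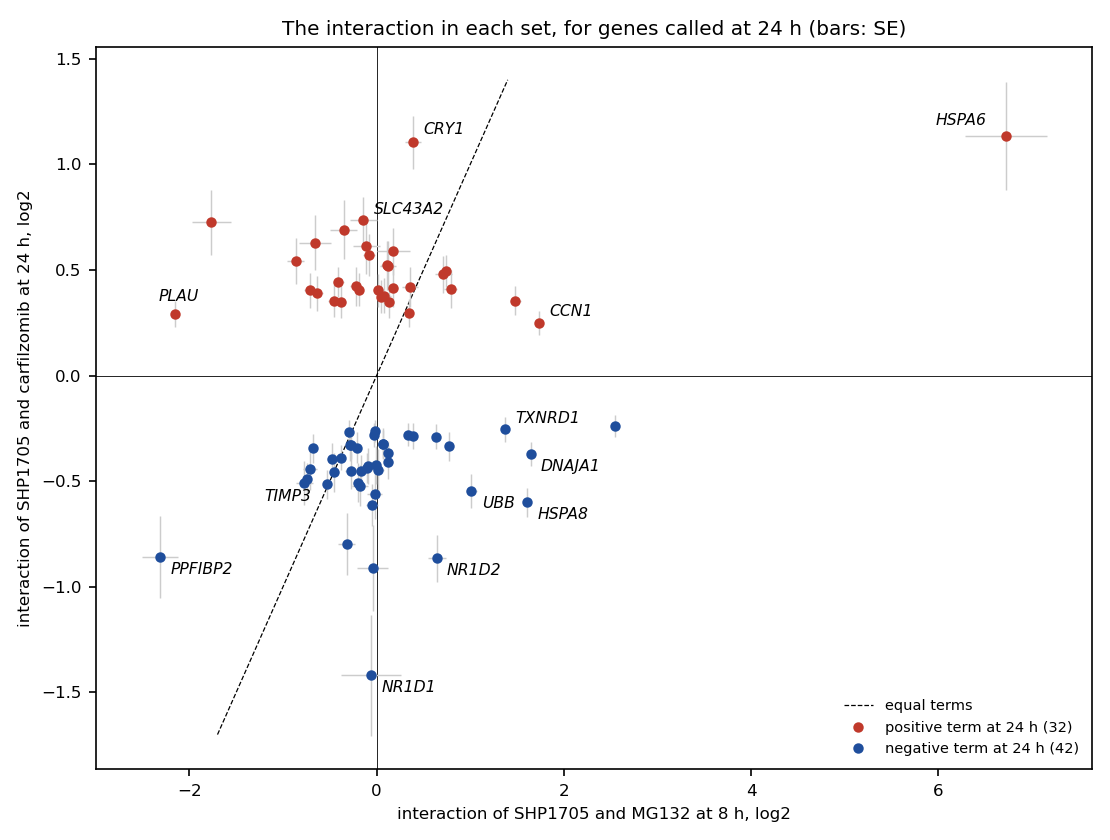
Interaction term of SHP1705 with carfilzomib at 24 h (y axis) against that with MG132 at 8 h (x axis), log2, for the called genes with a mean of 5 CPM or more (32 positive in red, 42 negative in blue), with SE bars and a dashed line of equal terms. HSPA8, UBB and DNAJA1 lie at the lower right, TIMP3 lies on the line, and HSPA6 lies far to the right.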

How the data were processed

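Gene-level read counts of polyA RNA-seq libraries were deposited by the authors as 3 tables of whole-number counts, not normalized, of which the carfilzomib table at 24 h is the main one here. Per the submitters' processing notes, Trimmomatic, FastQC, HISAT2 and featureCounts were used with hg38. Tool versions, annotation and strand setting were not given in the sources used here. Reads of overlapping or antisense genes therefore cannot be told apart. Every column was matched to its sample by treatment and replicate.

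All 12 libraries at 24 h entered 1 fit of 4 groups in edgeR 4.0.16 (limma 3.58.1, R 4.3.3) with filterByExpr, TMM factors and the quasi-likelihood F-test, on counts as deposited. The Benjamini-Hochberg adjustment ran over all tested genes of a contrast, with a threshold of 0.05. Fold changes carry a prior count of 0.125. Errors are standard errors, intervals are 95%, and CPM uses the TMM-scaled library size, except for the cell type markers, which use the plain total. The difference from the MG132 set came from a joint fit of both tables, taking only within-table contrasts. TMM scaling makes every fold change a relative one, blind to a shift in total RNA per cell. Replicate libraries all differed by more than counting noise.

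The members and lists were chosen with earlier results of these data known. The text names all measured clock genes, up to 12 genes a direction called in every fit without 1 library with a mean of at least 5 CPM, up to 4 called members a list by p, and a fixed set of stress genes. Alternatives were RLE factors, no count filter, DESeq2 1.42.0, a block on replicate number, 1 fit over all 36 libraries, the CPM scale, a 2-fold minimum and leaving out each library. Added after seeing the data were a GC correction (a smoothing spline with 5 degrees of freedom per library on the GC content of the longest GENCODE transcript, known for 90.9% of tested genes) and a fit without 4 libraries of the MG132 set. The method was tested on simulated data. Promoters and positions come from RefSeq on GRCh38.p14, matched by symbol or synonym for 11832 of 16183 tested genes. Plots used matplotlib 3.10.9 under Python 3.11.15. Values of a few genes that these rules would name are not reported here.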

Additional observations from a re-analysis of the deposited data

Results flagged for a closer look

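Of 17 genes examined (called clock genes and genes called in every fit without 1 library), the interaction with carfilzomib at 24 h differed from that with MG132 at 8 h for 15 by edgeR's test of the difference. The difference (24 h minus MG132 set, log2) was negative for HSPA8 (-2.22), DNAJA1 (-2.02), UBB (-1.57), NR1D2 (-1.52), NR1D1 (-1.37), GALNT3 (-0.57), NDRG1 (-0.50), P4HA1 (-0.35), BNIP3 (-0.29) and MICA (-0.26). It was positive for ELOVL6 (0.25), TSR3 (0.64), CRY1 (0.70), VARS1 (0.84) and SLC43A2 (0.87). Inhibitor, dose, time, library set and the POSTN counts of the libraries differ together between these 2 sets, and which of them goes with the differences was not tested.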

How the results depend on the processing

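The interaction count of 78 moved most. It was 364 without a count filter, 346 with DESeq2, 3 in a fit of all 36 libraries, and 7 with a 2-fold minimum. Not all of the 59 genes followed across settings were called in the main fit. Of those that were, GALNT3, P4HA1 and CDK1 alone kept the call in the fit of all 36. The other 24 lost it at nearly the same term. The fit of all 36 includes the carfilzomib set at 8 h and the MG132 set, where POSTN differed between libraries of a group. The cause was not tested, apart from the 2-fold minimum, which removes small terms by construction. Leaving out 1 library gave 20 to 477 for the interaction, 869 to 1852 for the combination against carfilzomib and 419 to 1117 for SHP1705 against DMSO. It gave 2493 to 3756 for carfilzomib and 3453 to 4880 for the combination, each against DMSO. The SHP1705 range is set by SHP1705 replicates 2 and 3, DMSO replicates 1 and 2 (419 to 469) and carfilzomib replicate 3 (1117). Without combination replicate 2 or 3, the combination against carfilzomib had 877 and 869 calls. RLE factors left all 6 counts within 1.5 times, as did the replicate block and the GC correction. The genes behind the counts changed more under the GC correction. Of the 3472 carfilzomib calls, it shared 2323 in the same direction, and RLE factors shared 3455. Of the 1460 calls for the combination against carfilzomib, the GC correction shared 1080 and RLE factors 1449. The difference from the MG132 set was called for 5486 genes, for 5144 to 5629 without 1 library, and for 3731 without the 4 libraries with MG132 or SHP1705 alone that held 1075 to 6972 POSTN counts, an alternative chosen after seeing the data. It keeps the 3 libraries with SHP1705 and MG132, at 2876 to 8040 POSTN counts, and so does not remove such libraries from that interaction.

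Replicate numbers did not pair the samples: same-number correlations of deviations ran from -0.08 to 0.11, over 0.1 in 1 of 18 pairs, and 6 of 12 libraries correlated best with their own number. With the replicate number as a block, 91 genes had a called interaction, and 100 with the GC correction added. Genes without a call changed sign under the GC correction, without and with the block: HSPA1A (-0.006 and -0.007), HSPA1B (-0.06 in both), PSMD1 (0.028 in both), SQSTM1 (-0.043 and -0.044) and ATF3 (0.024 and 0.023). Uncalled terms near 0 also changed sign when a library was left out, with ranges of -0.41 to 0.24 for PER1, -0.033 to 0.017 for BHLHE40, -0.019 to 0.109 for NPAS2, -0.62 to 0.25 for RORA, -0.001 to 0.072 for HSPA1B, -0.04 to 0.021 for PSMB5, -0.028 to 0.243 for DDIT3 and -0.084 to 0.08 for ATF3. Genes under about 5 CPM, among them several clock genes, have wide intervals at this depth.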
